A study of Mus musculus with 30 samples.

Results

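Myotubes that received the non-saponin fraction of Korean Red Ginseng and then D-galactose were compared with myotubes that received vehicle, to find which genes still differed from the untreated state. The comparison used 6 of the 30 libraries of the series, chosen by treatment label alone, and no library of D-galactose given by itself. The group called NSFr_Dgal (3 libraries) was given the fraction at 100 µg/mL for 12 h and then D-galactose at 20 mg/mL for 24 h. The group called control (3 libraries) was given vehicle. The protocol lists vehicle among the 12 h pretreatments and does not state when these cultures were harvested. The groups NSFr, RGW_Dgal and Rb2_Dgal, of 3 libraries each, served to place the difference. NSFr was given the fraction alone, labelled 100 µg/mL for 12 h, while RGW_Dgal was given the ginseng water extract at 100 µg/mL, and Rb2_Dgal the ginsenoside Rb2 at 20 µM, each for 12 h before the same exposure to D-galactose. The labels do not say whether the NSFr and control cultures were harvested at the end of the 12 h or at the later time of the D-galactose groups, so between NSFr_Dgal and either NSFr or control the time in culture and the treatment cannot be told apart. All groups were wild-type C2C12 cells, a mouse skeletal myoblast line, grown to confluence and differentiated in medium with 2% serum for 5 to 7 days. It is 1 line and the fraction is a mixture, so the values speak for these cultures only.

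D-galactose is a sugar that cells convert to glucose phosphates and, in excess, to galactitol and to glycated and oxidised products, and it is widely used to bring on ageing-like changes in muscle cultures. Red ginseng is steamed ginseng, whose saponins are the ginsenosides. The non-saponin fraction is what remains without them and is rich in sugars, polysaccharides and other polar compounds. A C2C12 culture holds multinucleated myotubes, whose nuclei do not divide, together with mononucleated cells that have not fused and can still cycle. Messenger RNA was measured in bulk, so fewer cells of a type and less RNA per cell cannot be told apart.

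The deposited expected counts of the 6 libraries summed to 23545437 to 29235587 per library, so that 3 counts, taken as the floor, stood for 0.103 to 0.127 CPM (counts scaled to a common library size). The first principal component of the 6 libraries held 44.1% of the variance and separated the groups. Myotube genes marked the cultures in both groups. The 6 myotube markers with a row summed to between 15412 and 16515 CPM in NSFr_Dgal and between 16540 and 18436 CPM in control. They did not move together. The range of Acta1 lay above that of control, those of Myh3 and Myog lay below, and those of Ckm, Tnnt3 and Ttn overlapped. Ttn spread widely, with 1633 to 2836 CPM in NSFr_Dgal and 2690 to 4566 CPM in control. The 4 myoblast markers summed to between 175 and 178 CPM in NSFr_Dgal and between 177 and 185 CPM in control. Of the fat cell markers, 3 of 4 were at or under the floor in all 6 libraries, as were 3 of 6 bone and cartilage markers. Others were expressed. Runx2 had 40.6 to 41.5 CPM in NSFr_Dgal and 36.2 to 39.8 CPM in control, and Sox9 41.0 to 43.6 and 48.1 to 50.5 CPM. The bone and cartilage markers summed to 82.5 to 85.8 CPM in NSFr_Dgal and 85.7 to 89.0 CPM in control. The fat cell markers summed to 4.58 to 5.87 and 5.20 to 5.85 CPM. Mitochondrially encoded transcripts held 1.42% ± 0.117 of counts in NSFr_Dgal, 1.18% ± 0.0433 in NSFr and 0.908% ± 0.211 in control (SD, n = 3 each).

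Many genes differed from the untreated state, nearly all by a small amount. Of 12166 genes tested, 2780 (22.9%) passed an adjusted p of 0.05 in edgeR's quasi-likelihood test, 1359 (11.2%) higher and 1421 (11.7%) lower in NSFr_Dgal than in control. The median change of these 2780 was 1.16-fold, and 2488 of them (89.5%) changed by less than 1.5-fold. At least 2-fold changes were found for 75 genes, 66 higher and 9 lower. Only 4 of the 75 averaged 5 CPM or more over both groups: Spaca6, mt-Atp8, Asprv1 and Atg9b. The same tests called 1518 genes (12.5%) between NSFr_Dgal and NSFr and 983 genes (8.08%) between NSFr and control. These comparisons share libraries with the first one and with each other, so their values are set side by side below and their overlap is not used. Fold changes are on the log2 scale with the standard error worked back from the test, and every adjusted p below is edgeR's with Benjamini-Hochberg adjustment over all 12166 genes. Genes named by rule for the size of their change or as list members had to be called, with libraries of the 2 groups that did not overlap. For them the lack of overlap is no separate result.

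**Figure D1:**
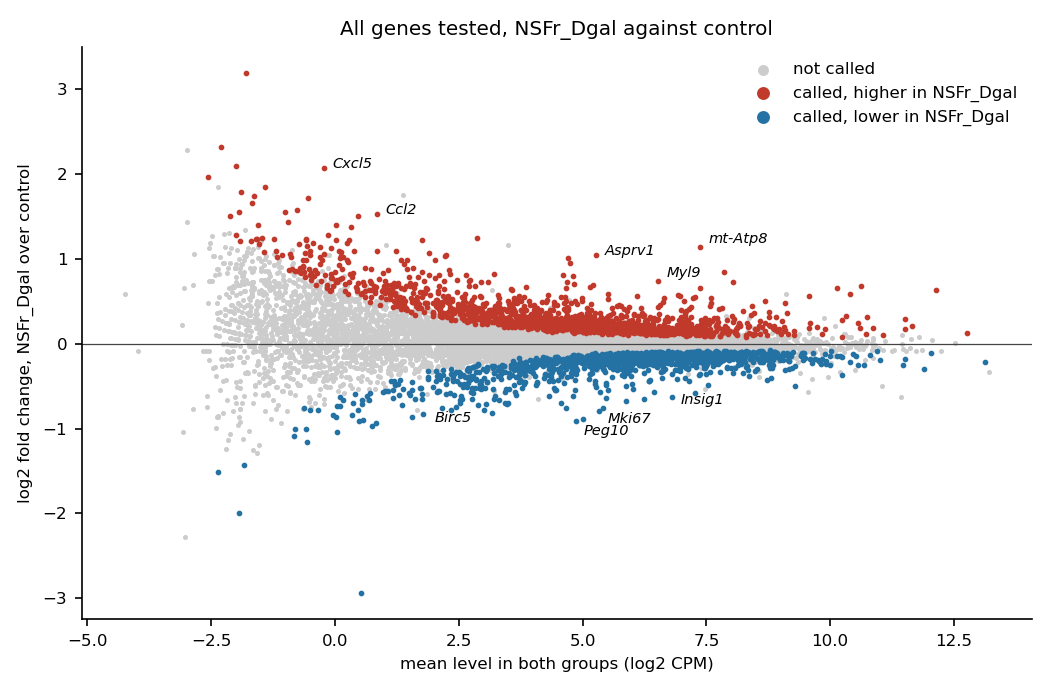
Log2 fold change, NSFr_Dgal over control (vertical), against mean expression in log2 CPM (horizontal) for the 12166 genes tested, with the 1359 genes called higher and the 1421 called lower coloured and a few named. Most called genes lie within 1.5-fold of no change.

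Genes of mitosis had the highest share of called members among the 49 lists examined. Of 38 genes of the spindle, the kinetochore and the kinases of mitosis, 37 were lower in NSFr_Dgal than in control and 0 were higher, where 11.7% of all genes tested were lower. Their median log2 fold change was -0.53, beside 0.00 over all genes tested. Summed over the 38 genes, the level was 470.4, 414 and 449 CPM in NSFr_Dgal, 713, 663 and 633 CPM in NSFr, and 625, 622 and 625 CPM in control. The NSFr_Dgal mean was 71.2% of the control mean, and its 3 sums lay below those of both other groups.

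The promoters of Mki67, Ccnb2 and Birc5, which were among the members lowest against control, are shown because many promoters of mitotic genes carry the cell cycle homology region (CHR, TTTGAA) near the start, often with CCAAT boxes upstream. Each runs from 250 bases before to 50 after the start in RefSeq on GRCm38.p6, 5′ to 3′ along the gene's strand, with TTTGAA and CCAAT in capitals on either strand (TTCAAA and ATTGG where the match is on the other strand). The Mki67 promoter is at chr7:135716330-135716629 on the minus strand, that of Ccnb2 at chr9:70421505-70421804 on the minus strand and that of Birc5 at chr11:117848987-117849286 on the plus strand.

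Mki67: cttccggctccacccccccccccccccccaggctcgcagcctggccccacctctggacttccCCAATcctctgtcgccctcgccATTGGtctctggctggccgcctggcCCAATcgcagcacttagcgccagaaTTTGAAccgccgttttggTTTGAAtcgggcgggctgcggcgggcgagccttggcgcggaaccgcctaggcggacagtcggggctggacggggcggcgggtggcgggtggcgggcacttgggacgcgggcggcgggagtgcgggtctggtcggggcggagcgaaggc
Ccnb2: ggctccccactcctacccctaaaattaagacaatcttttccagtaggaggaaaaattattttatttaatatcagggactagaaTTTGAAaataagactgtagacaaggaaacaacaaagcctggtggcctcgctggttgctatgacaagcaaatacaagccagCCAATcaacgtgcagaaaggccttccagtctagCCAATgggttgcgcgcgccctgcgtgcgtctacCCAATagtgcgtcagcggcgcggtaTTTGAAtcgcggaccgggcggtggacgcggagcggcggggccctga
Birc5: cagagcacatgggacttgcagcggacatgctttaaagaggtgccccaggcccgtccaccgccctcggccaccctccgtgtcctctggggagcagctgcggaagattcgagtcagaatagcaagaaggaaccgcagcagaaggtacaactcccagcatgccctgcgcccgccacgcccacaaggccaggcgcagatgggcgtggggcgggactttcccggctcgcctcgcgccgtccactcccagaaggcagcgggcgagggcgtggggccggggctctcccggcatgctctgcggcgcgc

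Mki67 and Ccnb2 each hold 2 TTTGAA and 3 CCAAT matches, whereas Birc5 holds 0 of either in this window. Both TTTGAA matches of Mki67 and the upstream match of Ccnb2 lie more than 50 bases before the start. The other TTTGAA match of Ccnb2 lies within 50 bases of it. Of the 37 members that fell, 31 had a promoter in the table, and 24 of these (77.4%) held TTTGAA, beside 14.1% of the promoters of all 9669 tested genes with one. Within 50 bases of the start on either side, a window chosen after the matches were seen, TTTGAA stood in 23 of 31 (74.2%), beside 3.74% of all. CCAAT stood in 80.6% of the 31 and in 43.1% of all, and both words together in 71.0% and in 5.86%. The E2F word TTCCCGC stood in 0 of the 31 promoters and in 9.66% of all. As 37 of the 38 genes of the list fell, these shares describe mitosis genes as a list and are not particular to a fall. A match is a description of the letters, and binding was not measured.

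Mki67, which coats mitotic chromosomes and is a common marker of cycling cells, had 31.0, 26.5 and 30.8 CPM in NSFr_Dgal, 58.3, 50.03 and 45.3 CPM in NSFr and 48.5, 55.0 and 49.2 CPM in control. The NSFr_Dgal libraries were all below the other 6, with a log2 fold change of -0.79 ± 0.17, adjusted p = 0.00192 against control. Birc5 (survivin), a subunit of the chromosomal passenger complex, had 5.79, 6.14 and 5.89 CPM in NSFr_Dgal, 10.9, 10.6 and 9.42 CPM in NSFr and 10.3, 9.44 and 10.8 CPM in control (-0.78 ± 0.096, adjusted p = 6.20e-07). Its partner in that complex, the kinase Aurkb, had 4.77, 4.16 and 4.28 CPM in NSFr_Dgal and 6.76, 7.63 and 7.12 CPM in control (-0.70 ± 0.11, adjusted p = 1.96e-05). That NSFr_Dgal and control did not overlap was a condition for naming both genes. Ccnb2, the cyclin B2 that activates Cdk1 at entry into mitosis, had 7.98, 7.57 and 9.09 CPM in NSFr_Dgal, 13.1, 13.5 and 14.6 CPM in NSFr and 14.4, 12.2 and 13.3 CPM in control (-0.70 ± 0.087, adjusted p = 6.84e-07).

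Other members near the bottom of the order were Kif4, a motor that condenses chromosomes (-0.74 ± 0.12), Ect2, the exchange factor that starts the cleavage furrow (-0.71 ± 0.085), and Aspm, which acts at spindle poles (-0.71 ± 0.12). Depdc1a, which was not on the list, was lower by a like amount (-0.79 ± 0.11). Top2a, the topoisomerase that untangles sister chromosomes, had 37.6, 31.7 and 35.4 CPM in NSFr_Dgal against 54.9, 55.1 and 52.2 CPM in control, without overlap (-0.64 ± 0.094, adjusted p = 4.38e-05). Tpx2, which activates Aurora A on spindle microtubules, had a smaller change of -0.54 ± 0.068. The 1 member that was not called was Kif2c, a microtubule-depolymerising kinesin, with 5.87, 4.71 and 5.93 CPM in NSFr_Dgal and 6.55, 5.91 and 6.95 CPM in control (-0.24 ± 0.12, 95% interval -0.49 to 0.01). Plk1, the polo-like kinase, was close to the threshold, with 6.34, 5.39 and 5.51 CPM in NSFr_Dgal and 7.66, 6.46 and 6.99 CPM in control (-0.30 ± 0.10, adjusted p = 0.0323), and with adjusted p = 0.158 without control replicate 1. Kif2c and Plk1 were picked out after their values were seen, as was Top2a.

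**Figure D2:**
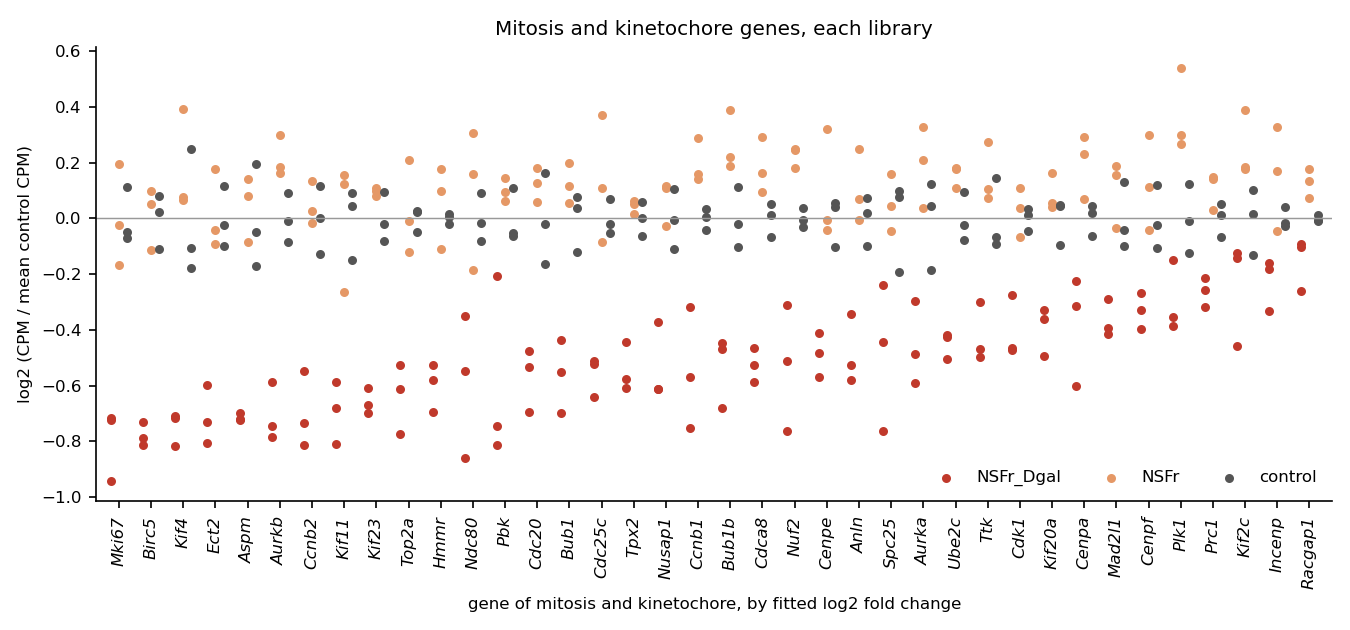
Level of each of the 38 mitosis genes in each library as log2 of its CPM over the control mean, for NSFr_Dgal, NSFr and control libraries (3 each). Members in the NSFr_Dgal libraries lie mostly below 0, at a median log2 fold change of -0.53, while those in NSFr lie slightly above it, at 0.11.

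Set beside the fraction alone, the mitosis genes were lower still. All 38 were lower in NSFr_Dgal than in NSFr, with a median of -0.67, where 6.42% of all genes tested were lower. Between NSFr and control, 1 member was called higher and 0 lower, with a median of 0.11, beside 4.71% higher and 3.37% lower over all genes. The member called higher in NSFr was Plk1, with 10.2, 8.66 and 8.47 CPM in NSFr (0.37 ± 0.096, adjusted p = 0.0145), and it was not called without NSFr replicate 1 or without control replicate 2.

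Genes of S phase differed less evenly. Of 40 genes of DNA replication, 9 were lower and 1 higher in NSFr_Dgal than in control (median -0.16), so the share called, 25.0%, was near the 22.9% of all genes. E2f2, a transcription factor of the E2F family, had 132, 118 and 124 CPM in NSFr_Dgal, 168, 158 and 160.3 CPM in NSFr and 182, 187 and 189 CPM in control, in 3 separate ranges (-0.58 ± 0.042, adjusted p = 2.50e-11). Ccna2, the cyclin A of S phase and early mitosis, had 18.2, 16.1 and 18.3 CPM in NSFr_Dgal, 28.4, 28.5 and 28.5 CPM in NSFr and 26.0, 24.9 and 24.5 CPM in control (-0.52 ± 0.070, adjusted p = 2.15e-06). Tk1, the thymidine kinase of cycling cells, had 6.93, 5.08 and 4.97 CPM in NSFr_Dgal and 8.88, 7.63 and 7.59 CPM in control (-0.52 ± 0.12, adjusted p = 0.00211). None of the Mcm2, Mcm3, Mcm4, Mcm5 and Mcm7 subunits of the replicative helicase was called, and Mcm6 was the 1 member that was higher. Without NSFr_Dgal replicate 2, 5 members were called in place of 10.

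The next genes regulate exit from the cycle. Of 14 cyclin-dependent kinase inhibitors, D cyclins and pocket proteins, 5 were lower and 1 higher, 42.9% called beside the 22.9% of all genes. Cdkn1a (p21), which holds myotubes and senescent cells out of the cycle, had 2060.3, 1951 and 1956 CPM in NSFr_Dgal and 2194, 2001 and 1980.1 CPM in control, with ranges that overlapped (-0.05 ± 0.038, 95% interval -0.13 to 0.03, adjusted p = 0.379). The cyclin Ccnd2 had 20.5, 21.4 and 22.04 CPM in NSFr_Dgal and 25.9, 27.5 and 28.3 CPM in control (-0.35 ± 0.058, adjusted p = 5.67e-05). Rgcc, a regulator of Cdk1, was the member that rose, with 6.85, 7.13 and 6.97 CPM in NSFr_Dgal, 3.02, 3.75 and 4.196 CPM in NSFr and 4.32, 4.99 and 5.06 CPM in control (0.55 ± 0.13, adjusted p = 0.00297). Of 27 p53 targets, 4 were higher and 4 lower against control, with a median of 0.00 and 29.6% called. Aen, a p53-induced nuclease, had 90.1, 83.8 and 87.8 CPM in NSFr_Dgal and 76.1, 73.4 and 74.6 CPM in control (0.22 ± 0.042, adjusted p = 2.49e-04). Gadd45a, a growth-arrest gene, had 415, 388 and 391 CPM in NSFr_Dgal and 493, 472 and 455 CPM in control (-0.25 ± 0.060, adjusted p = 0.00381). Against NSFr, 11 p53 targets were higher and 1 lower (median 0.14), where 6.06% of all genes were higher. Between NSFr and control, 0 were higher and 7 lower (median -0.10, with 3.37% of all genes lower). These 7 were between 4 and 8 under the alternatives.

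The integrated stress response is the programme in which the transcription factor Atf4 turns on genes for amino acid supply, one-carbon metabolism and the handling of misfolded protein. Of 29 of its genes tested, 18 were lower in NSFr_Dgal than in control and 0 higher, with a median of -0.22, where 11.7% of all genes were lower. The same list held 24 lower and 0 higher genes between NSFr and control (median -0.29, with 3.37% of all genes lower), and 0 lower and 2 higher between NSFr_Dgal and NSFr (median 0.03). NSFr cultures, which had no D-galactose, held the low level as well. The 24 were 12 without NSFr replicate 1 and 14 without control replicate 2, and the 2 were between 1 and 5 under the alternatives.

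The promoter of Chac1, the member with the largest change, is shown because Atf4 binds with C/EBP partners to a composite element whose core is TGATGCA. It lies at chr2:119350992-119351291 on the plus strand (RefSeq, GRCm38.p6), with that core and CCAAT in capitals on either strand (TGCATCA and ATTGG where the match is on the other strand).

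Chac1: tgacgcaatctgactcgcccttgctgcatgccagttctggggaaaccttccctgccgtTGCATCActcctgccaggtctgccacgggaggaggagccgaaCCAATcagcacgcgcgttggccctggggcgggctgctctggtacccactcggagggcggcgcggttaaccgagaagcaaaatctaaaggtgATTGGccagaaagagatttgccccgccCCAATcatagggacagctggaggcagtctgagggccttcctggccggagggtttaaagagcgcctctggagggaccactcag

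It holds 1 TGATGCA and 3 CCAAT matches. Among the 14 promoters of members that fell, 2 (14.3%) held TGATGCA, beside 2.53% of all tested genes with a promoter, and 71.4% held CCAAT, beside 43.1%. With 2 of 14, the share for TGATGCA rests on a pair of genes.

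Chac1, an enzyme that breaks down glutathione, had 32.6, 31.8 and 30.2 CPM in NSFr_Dgal, 26.9, 40.5 and 38.2 CPM in NSFr and 51.5, 53.4 and 54.7 CPM in control. All 3 control libraries were above the other 6 (-0.75 ± 0.10, adjusted p = 1.76e-05 for NSFr_Dgal against control, -0.59 ± 0.10 for NSFr against control). Atf4 itself had 293, 290.0 and 287 CPM in NSFr_Dgal, 264, 295 and 296 CPM in NSFr and 361, 356 and 330.3 CPM in control (-0.27 ± 0.043, adjusted p = 4.12e-05). Pck2, the mitochondrial enzyme that makes phosphoenolpyruvate, had 48.8, 42.9 and 44.5 CPM in NSFr_Dgal, 45.1, 58.6 and 55.6 CPM in NSFr and 69.7, 72.9 and 74.2 CPM in control (-0.67 ± 0.076, adjusted p = 7.31e-07). Asns, the asparagine synthetase, had 66.9, 73.1 and 70.2 CPM in NSFr_Dgal and 90.1, 100.5 and 92.3 CPM in control (-0.43 ± 0.057, adjusted p = 2.77e-06). NSFr_Dgal and control did not overlap in these genes, which was a condition for naming those taken from the list.

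The folate enzyme Aldh1l2 (-0.66 ± 0.085), the pseudokinase Trib3 (-0.62 ± 0.13) and the serine synthesis enzyme Psat1 (-0.36 ± 0.044) also fell. So did the stress sensor Sesn2 (-0.38 ± 0.070), which stands in the p53 list too. Bcat1, the cytosolic enzyme that starts the breakdown of branched amino acids and was on no list, had 19.7, 17.0 and 19.5 CPM in NSFr_Dgal, 19.4, 27.03 and 23.6 CPM in NSFr and 29.8, 34.1 and 31.6 CPM in control (-0.76 ± 0.081, adjusted p = 8.39e-08). Ddit3 (CHOP) was lower at -0.35 ± 0.10, with adjusted p = 0.107 without control replicate 2. Atf3 was close to its control level, with 7.71, 7.47 and 6.82 CPM in NSFr_Dgal, 4.63, 6.15 and 5.22 CPM in NSFr and 7.39, 7.47 and 7.63 CPM in control (-0.03 ± 0.10, 95% interval -0.24 to 0.18). It was higher in NSFr_Dgal than in NSFr (0.45 ± 0.11, adjusted p = 0.00535), with adjusted p = 0.0515 without NSFr replicate 1. Gdf15, a secreted stress signal, had 8.30, 7.88 and 6.90 CPM in NSFr_Dgal, 4.55, 6.71 and 6.38 CPM in NSFr and 9.27, 8.81 and 8.45 CPM in control, and its difference from control was not called (-0.20 ± 0.13, 95% interval -0.48 to 0.07). Ddit3 and Atf3 were picked out after their values were seen.

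Cholesterol synthesis is set by the SREBP2 transcription factor, which Insig1 retains in the endoplasmic reticulum when sterols are plentiful. Of 28 genes of cholesterol synthesis and uptake, 20 were lower and 1 higher in NSFr_Dgal than in control (median -0.21, with 11.7% of all genes lower). Between NSFr and control, 17 were lower and 0 higher (median -0.17, with 3.37% of all genes lower), and between NSFr_Dgal and NSFr 6 were lower and 2 higher (median -0.06, with 6.42% of all genes lower). The 8 calls against NSFr were 3 without NSFr_Dgal replicate 3 and 5 without NSFr_Dgal replicate 2 or without any 1 of the NSFr replicates. The promoter of Insig1 is shown as that of the member with the largest change, at chr5:28071162-28071461 on the plus strand (RefSeq, GRCm38.p6), with the E-box CACGTG and CCAAT in capitals on either strand (ATTGG where CCAAT is on the other strand).

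Insig1: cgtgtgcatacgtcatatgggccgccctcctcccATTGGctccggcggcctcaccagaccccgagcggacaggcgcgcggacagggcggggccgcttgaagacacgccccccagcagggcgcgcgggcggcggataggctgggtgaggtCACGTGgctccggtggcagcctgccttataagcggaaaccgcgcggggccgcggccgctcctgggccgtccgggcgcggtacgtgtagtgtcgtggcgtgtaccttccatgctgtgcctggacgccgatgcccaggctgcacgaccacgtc

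It holds 1 CACGTG and 1 CCAAT match. CCAAT stood in 11 of the 12 promoters (91.7%) of the members that fell, and CACGTG in 33.3%, beside 43.1% and 11.5% of all tested genes with a promoter. The sterol element itself was not searched.

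Insig1 had 87.7, 85.4 and 90.6 CPM in NSFr_Dgal, 109, 109.5 and 107 CPM in NSFr and 137, 137 and 135 CPM in control. The groups formed 3 separate ranges, and NSFr_Dgal was the lowest (-0.63 ± 0.038, adjusted p = 2.82e-13 against control, -0.30 ± 0.038, adjusted p = 1.62e-06 against NSFr). Nsdhl, which removes a methyl carbon from the sterol ring, had 71.5, 67.5 and 66.3 CPM in NSFr_Dgal, 76.4, 80.3 and 79.97 CPM in NSFr and 92.2, 92.5 and 94.4 CPM in control (-0.44 ± 0.039, adjusted p = 1.57e-09). Hmgcs1, the synthase ahead of the rate-limiting reductase, had 234, 228 and 234 CPM in NSFr_Dgal, 247, 247 and 238 CPM in NSFr and 289.6, 295 and 299.5 CPM in control (-0.34 ± 0.034, adjusted p = 1.39e-08). Msmo1, which oxidises methyl sterols, fell by a like amount (-0.41 ± 0.043, adjusted p = 4.67e-08). For Hmgcs1 and Msmo1 the difference between NSFr_Dgal and NSFr was not called (-0.07 ± 0.034 and -0.04 ± 0.044). Scap, the escort of SREBP2 out of the endoplasmic reticulum, was the member that rose (0.17 ± 0.036, adjusted p = 0.00113), and was picked out after its value was seen. Of 16 genes of fatty acid synthesis, 5 were lower and 1 higher, 37.5% called beside the 22.9% of all genes. Among those lower was the abundant desaturase Scd2, with 2563, 2569.5 and 2615 CPM in NSFr_Dgal and 2959, 3120.0 and 3167 CPM in control (-0.26 ± 0.030, adjusted p = 2.46e-07). Of 11 genes listed for cholesterol efflux, 1 was higher and 2 lower (median 0.01), 27.3% called beside the 22.9% of all genes. The member that rose was Apoe, which carries cholesterol out of cells. It had 27.9, 30.2 and 31.3 CPM in NSFr_Dgal and 22.1, 21.4 and 19.3 CPM in control (0.51 ± 0.071, adjusted p = 5.34e-06).

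Many chaperones of the endoplasmic reticulum and regulators of the unfolded protein response were lower by small amounts. Of 22 tested, 15 were lower and 0 higher against control (median -0.13, with 11.7% of all genes lower), and 10 were lower against NSFr (median -0.13, with 6.42% lower). Between NSFr and control 2 were lower (median 0.00, with 3.37% lower), and this count was between 1 and 3 with 1 library left out, with 1 without NSFr replicate 1. The count against control was 9 without NSFr_Dgal replicate 3. Hsp90b1, the Hsp90 of the endoplasmic reticulum, had 776, 812 and 811 CPM in NSFr_Dgal, 982, 906 and 896 CPM in NSFr and 930.4, 889 and 929 CPM in control (-0.20 ± 0.037, adjusted p = 2.30e-04). Xbp1, a transcription factor of this response, had 181, 187 and 188 CPM in NSFr_Dgal and 214, 205 and 217 CPM in control (-0.19 ± 0.035, adjusted p = 1.67e-04). Dnajb11 (-0.19 ± 0.037) and Dnajb9 (-0.21 ± 0.044), co-chaperones of Hspa5, fell by similar amounts. Hspa5 (BiP) was lower at -0.12 ± 0.040, adjusted p = 0.0238, with adjusted p = 0.0949 without control replicate 3. In the cytosol, the chaperone Hspa8 had 1352, 1391 and 1387 CPM in NSFr_Dgal and 1677, 1593 and 1646 CPM in control (-0.25 ± 0.034, adjusted p = 2.70e-06), whereas the small heat shock protein of muscle Hspb7 had 469, 492 and 491 CPM in NSFr_Dgal and 338, 325 and 364 CPM in control (0.50 ± 0.043, adjusted p = 9.52e-10). Of 20 heat shock genes, 6 were higher and 3 lower, 45.0% called beside the 22.9% of all genes.

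Some genes of sugar uptake and glycolysis were higher in NSFr_Dgal. Of 26, 12 were higher, 0 lower and 14 not called against control (median 0.13), where 11.2% of all genes were higher. Against NSFr, 8 were higher (median 0.07, with 6.06% of all genes higher), and between NSFr and control 3 were higher (median 0.03, with 4.71% higher). The 8 against NSFr were 4 without NSFr_Dgal replicate 3 and 5 without any 1 of the NSFr replicates, and the 3 for NSFr were between 1 and 6 under the alternatives, with 1 without control replicate 2. Pkm, the pyruvate kinase of the last step, had 3233, 3116 and 3272 CPM in NSFr_Dgal, 2815, 2837 and 2805 CPM in NSFr and 2726, 2534 and 2631 CPM in control (0.29 ± 0.035, adjusted p = 4.99e-07). Hk2, the insulin-regulated hexokinase of muscle, had 154, 161 and 167 CPM in NSFr_Dgal, 134, 132 and 131 CPM in NSFr and 126, 133 and 131 CPM in control (0.31 ± 0.041, adjusted p = 2.19e-06). Eno1, an enolase, had 1319.9, 1321 and 1350.4 CPM in NSFr_Dgal and 1138, 1034 and 1115 CPM in control (0.28 ± 0.036, adjusted p = 1.11e-06). In all 3 genes the NSFr_Dgal libraries were above every control library, as the naming rule required. Slc2a3, a glucose carrier with high affinity that was picked out after its value was seen, had 5.17, 5.63 and 6.05 CPM in NSFr_Dgal, 4.40, 4.24 and 4.15 CPM in NSFr and 3.24, 3.94 and 3.60 CPM in control (0.65 ± 0.11, adjusted p = 1.17e-04). The lactate dehydrogenases Ldha and Ldhb and the muscle carrier Slc2a4 were not called.

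Of 17 targets of the hypoxia factor HIF1, 6 were higher and 0 lower (median 0.11), 35.3% beside the 11.2% of all genes that were higher. Without NSFr_Dgal replicate 3 or without control replicate 2, 3 were called. Adm, a vasodilator peptide, had 8.77, 8.36 and 9.17 CPM in NSFr_Dgal, 7.18, 7.03 and 8.02 CPM in NSFr and 5.78, 5.58 and 4.93 CPM in control (0.68 ± 0.097, adjusted p = 6.07e-06). Egln1, an oxygen-sensing hydroxylase, rose at 0.25 ± 0.044, and Ankrd37 at 0.46 ± 0.11. Vegfa, Car9 and Bnip3 of the same list were not called.

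A pair of alpha-arrestins that limit glucose uptake differed in opposite directions. Of 10 glucose-responsive and arrestin genes, 1 was higher and 3 lower than in control (median -0.10), 40.0% called beside the 22.9% of all genes. Arrdc3 had 81.3, 82.4 and 82.3 CPM in NSFr_Dgal, 45.1, 48.2 and 50.8 CPM in NSFr and 52.9, 56.6 and 56.5 CPM in control. The NSFr_Dgal libraries were the highest (0.57 ± 0.056, adjusted p = 1.90e-08 against control, 0.77 ± 0.057, adjusted p = 4.83e-10 against NSFr). Txnip, which responds to glucose through MondoA and ChREBP, had 294, 283 and 294 CPM in NSFr_Dgal, 263, 299 and 311 CPM in NSFr and 345, 359 and 375 CPM in control (-0.31 ± 0.047, adjusted p = 1.64e-05). NSFr_Dgal and NSFr overlapped for Txnip (-0.00 ± 0.047), and both lay below control. Slc16a6, a carrier of the monocarboxylate transporter family, had 9.04, 9.82 and 10.0 CPM in NSFr_Dgal, 4.63, 5.09 and 5.55 CPM in NSFr and 5.02, 6.58 and 6.005 CPM in control (0.72 ± 0.088, adjusted p = 5.21e-07). Slc16a3, the lactate exporter of glycolytic muscle, had 125, 116 and 129 CPM in NSFr_Dgal and 104, 91.7 and 104 CPM in control (0.30 ± 0.046, adjusted p = 2.21e-05). Of 10 genes of monocarboxylate transport and related functions, 2 were higher and 0 lower (median -0.003). This share of 20.0% was near the 22.9% of all genes. Of 15 genes of galactose and polyol metabolism, 3 were higher and 1 lower, 26.7% beside the 22.9% of all genes, and 1 was called without NSFr_Dgal replicate 1. Pgm2, which interconverts sugar phosphates after the galactose pathway, had 235, 241 and 253 CPM in NSFr_Dgal and 224, 205 and 216 CPM in control (0.18 ± 0.041, adjusted p = 0.00191).

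The transcripts encoded by mitochondrial DNA were higher, with a wide spread among control libraries. Of 13, 9 were higher and 0 lower than in control (median 0.64, with 11.2% of all genes higher). The count was 3 when only the 6 libraries were fitted, 4 without NSFr_Dgal replicate 2, 4 without control replicate 1 and 6 without control replicate 2. mt-Nd3, a subunit of complex I, had 338, 361 and 292 CPM in NSFr_Dgal, 288, 284 and 293 CPM in NSFr and 226, 186 and 185 CPM in control (0.73 ± 0.12, adjusted p = 1.98e-04). mt-Atp8, a subunit of the ATP synthase, had 219, 221 and 241 CPM in NSFr_Dgal, 175, 198 and 161 CPM in NSFr and 62.0, 122 and 127 CPM in control (1.14 ± 0.26, adjusted p = 0.00338), with adjusted p = 0.0753 when only the NSFr_Dgal and control groups were fitted. Against NSFr, 0 of 13 passed edgeR's test and 0 passed that of DESeq2, 1 had an unadjusted p under 0.05 in edgeR and 4 were called when only the NSFr_Dgal and NSFr groups were fitted, with a median of 0.22. Between NSFr and control 1 was higher (median 0.42, with 4.71% of all genes higher). There, 4 were called without control replicate 3, 3 by DESeq2 and 2 when only these groups were fitted. Of 29 nuclear genes of oxidative phosphorylation, 0 were higher and 2 lower (median -0.02), 6.90% beside the 22.9% of all genes, and 0 were called without NSFr_Dgal replicate 3 and 1 without NSFr_Dgal replicate 1 or without control replicate 1. The part that the recovery of mitochondrial RNA by poly(A) selection plays was not tested.

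Contractile genes differed in both directions. Of 45 genes of the sarcomere, 13 were higher and 6 lower than in control (median 0.08), 42.2% called beside the 22.9% of all genes. Csrp3, a LIM protein of the Z-disc that senses stretch, had 149, 151 and 148 CPM in NSFr_Dgal, 84.7, 98.8 and 106 CPM in NSFr and 104, 98.3 and 102 CPM in control (0.56 ± 0.062, adjusted p = 5.45e-07). Xirp1, an actin-binding protein of muscle attachment and repair, had 493, 487 and 503 CPM in NSFr_Dgal, 384, 381 and 379 CPM in NSFr and 353, 391.6 and 396 CPM in control (0.38 ± 0.048, adjusted p = 1.13e-06). Both genes were higher in every NSFr_Dgal library than in any of the other 6. Actc1, the cardiac actin of embryonic muscle, was higher at 0.32 ± 0.041, adjusted p = 1.24e-06, and Mybpc2, the fast myosin-binding protein C, at 0.34 ± 0.042, adjusted p = 5.72e-07. Myh3, the embryonic myosin heavy chain, was lower, with 3271, 3432 and 3482 CPM in NSFr_Dgal, 4549, 4327 and 4163 CPM in NSFr and 4069.5, 4314 and 4161 CPM in control (-0.30 ± 0.043, adjusted p = 6.43e-06). Reads can be shared between near-identical myosin genes, so values within that cluster are uncertain. The differentiation factor Myog had 1101, 1076 and 1070.5 CPM in NSFr_Dgal and 1186, 1135 and 1103 CPM in control, not called (-0.08 ± 0.047, 95% interval -0.17 to 0.02). Ckm, the muscle creatine kinase, was not called either (0.10 ± 0.051, 95% interval -0.00 to 0.21). Myog was called between NSFr and control (adjusted p = 0.00103) and between NSFr_Dgal and NSFr (adjusted p = 0.0118). The latter call was lost without NSFr_Dgal replicate 1, without NSFr replicate 1 or without NSFr replicate 3. Pax7, the factor of satellite cells, had 40.0, 40.7 and 39.1 CPM in NSFr_Dgal and 30.2, 31.9 and 35.6 CPM in control (0.30 ± 0.062, adjusted p = 7.25e-04). Of 14 markers of undifferentiated myoblasts, Pax7 among them, 2 were higher and 3 lower (median -0.05), 35.7% called beside 22.9%. Without NSFr_Dgal replicate 3 or without control replicate 2, 3 of these markers were called. Cd34, a surface protein of quiescent satellite cells, had 46.9, 43.4 and 46.5 CPM in NSFr_Dgal and 55.2, 51.4 and 54.7 CPM in control (-0.24 ± 0.045, adjusted p = 2.50e-04). Vcam1, an adhesion molecule of the same cells, had 67.4, 66.6 and 65.5 CPM in NSFr_Dgal and 70.5, 74.2 and 72.2 CPM in control (-0.12 ± 0.039, adjusted p = 0.0271), with adjusted p = 0.116 without control replicate 2. Cd34 and Vcam1 were picked out after their values were seen.

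Of 11 fibroblast and smooth muscle markers, 4 were higher and 1 lower than in control, 45.5% called beside the 22.9% of all genes. Their median was 0.01 and their lowest log2 fold change -0.48. Without NSFr_Dgal replicate 2 or without control replicate 2, 2 were called. Myl9, which was not on that list, the regulatory light chain of smooth and non-muscle myosin, had 121, 114 and 111 CPM in NSFr_Dgal, 82.0, 79.8 and 83.0 CPM in NSFr and 73.0, 66.5 and 67.3 CPM in control, in 3 separate ranges (0.74 ± 0.042, adjusted p = 1.40e-13). Cnn1 (calponin), named after its values were seen, had 5.32, 4.84 and 5.36 CPM in NSFr_Dgal and 3.66, 2.43 and 2.83 CPM in control (0.78 ± 0.14, adjusted p = 1.98e-04). Tagln (transgelin) had 272, 264 and 261 CPM in NSFr_Dgal and 239, 208 and 207 CPM in control (0.28 ± 0.064, adjusted p = 0.00261). The 5 fibroblast and smooth muscle markers of the cell type check summed to between 147 and 172 CPM in NSFr_Dgal and between 140 and 152 CPM in control, and among them Myh11, a defining smooth muscle myosin, was between 0.196 and 0.231 CPM in NSFr_Dgal and between 0.0419 and 0.172 CPM in control. The part of such cells in the result was not tested.

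Genes of muscle atrophy did not move together. Of 21, 4 were higher and 3 lower (median -0.02), 33.3% called beside the 22.9% of all genes. Fbxo40, a muscle ubiquitin ligase that targets Irs1, had 43.4, 45.6 and 48.4 CPM in NSFr_Dgal, 34.6, 32.4 and 34.5 CPM in NSFr and 28.4, 27.1 and 29.6 CPM in control (0.69 ± 0.063, adjusted p = 3.05e-09). Fbxo32 (atrogin-1) had 142, 152 and 147 CPM in NSFr_Dgal and 117, 133 and 118 CPM in control (0.26 ± 0.050, adjusted p = 2.84e-04). Trim63 (MuRF1), the other classic ligase of atrophy, had 48.3, 47.1 and 47.2 CPM in NSFr_Dgal and 55.2, 48.5 and 48.0 CPM in control, not called (-0.09 ± 0.061, 95% interval -0.22 to 0.03). The metallothioneins Mt2 (0.67 ± 0.081) and Mt1 (0.44 ± 0.074) were the other members that rose. They are close copies whose reads can be split between them, and NSFr also exceeded control for both (0.69 ± 0.081 and 0.65 ± 0.073).

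Among secreted factors of senescent and inflamed cells, low-abundance chemokines showed the largest fold changes. Of 28, 10 were higher and 5 lower against control (median 0.09), 53.6% called beside the 22.9% of all genes. Between NSFr and control 8 were higher and 1 lower, 32.1% beside 8.08%. Cxcl5, which attracts neutrophils, had 1.17, 1.64 and 1.35 CPM in NSFr_Dgal, 1.295, 1.31 and 1.23 CPM in NSFr and 0.314, 0.336 and 0.343 CPM in control (2.07 ± 0.27, adjusted p = 1.62e-06 for NSFr_Dgal, 1.94 ± 0.28, adjusted p = 5.52e-05 for NSFr). Cxcl1, of the same family, had 0.783, 0.887 and 0.963 CPM in NSFr_Dgal, 1.14, 0.813 and 0.699 CPM in NSFr and 0.244, 0.377 and 0.257 CPM in control (1.58 ± 0.33, adjusted p = 6.90e-04 for NSFr_Dgal, 1.59 ± 0.33, adjusted p = 0.00253 for NSFr). The 6 libraries given the fraction were above all controls for both genes, with or without D-galactose. Ccl2, which attracts monocytes, had 2.93, 2.42 and 2.66 CPM in NSFr_Dgal, 1.73, 1.41 and 2.06 CPM in NSFr and 1.01, 0.671 and 1.07 CPM in control (1.52 ± 0.18, adjusted p = 5.13e-07). It was also higher than in NSFr (0.63 ± 0.16, adjusted p = 0.00784), with adjusted p = 0.0791 without NSFr replicate 2. Ccl7, a close relative, was higher than control at 0.86 ± 0.11. Ccl2 and Ccl7 were picked out after their values were seen.

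Il1b, the inflammatory cytokine interleukin-1 beta, followed another order, with 7.51, 6.45 and 6.70 CPM in NSFr_Dgal, 4.003, 4.31 and 4.32 CPM in NSFr and 4.08, 4.11 and 4.07 CPM in control (0.75 ± 0.12, adjusted p = 4.92e-05 against control, 0.71 ± 0.12, adjusted p = 1.48e-04 against NSFr). Cxcl12, which draws muscle precursor cells, had 83.0, 81.5 and 84.1 CPM in NSFr_Dgal, 106, 104.97 and 105.3 CPM in NSFr and 97.9, 88.7 and 98.1 CPM in control (-0.20 ± 0.036, adjusted p = 1.84e-04). Of 22 interferon response genes, 5 were higher and 1 lower, so that the share called, 27.3%, was near the 22.9% of all genes. Irf9, a factor that carries the interferon signal, had 9.39, 9.07 and 9.21 CPM in NSFr_Dgal and 6.34, 6.92 and 7.21 CPM in control (0.44 ± 0.085, adjusted p = 3.36e-04).

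Targets of NRF2, the factor that answers oxidants and electrophiles, form a list of 29. Of these, 10 were higher and 3 lower in NSFr_Dgal than in control (median 0.08), 44.8% beside the 22.9% of all genes. Between NSFr and control, 7 were higher and 0 lower (median 0.07, with 4.71% of all genes higher). Against NSFr, 2 were higher and 1 lower, 10.3% beside the 12.5% of all genes. The 7 in NSFr were 4 without control replicate 2, and the 3 against NSFr were 6 without NSFr replicate 1 and 7 when only the NSFr_Dgal and NSFr groups were fitted. Ephx1, an epoxide hydrolase, had 117, 107 and 102 CPM in NSFr_Dgal, 85.5, 89.1 and 91.5 CPM in NSFr and 78.8, 78.0 and 81.2 CPM in control (0.46 ± 0.044, adjusted p = 6.91e-09). Aox1, an aldehyde oxidase, had 14.9, 17.6 and 16.6 CPM in NSFr_Dgal, 17.1, 17.0 and 16.2 CPM in NSFr and 12.4, 12.4 and 12.6 CPM in control (0.40 ± 0.074, adjusted p = 2.22e-04). Ftl1, the ferritin light chain, rose at 0.33 ± 0.059, adjusted p = 2.12e-04. Gpx3, a secreted glutathione peroxidase, had 148, 149 and 153 CPM in NSFr_Dgal and 119.9, 113 and 117 CPM in control (0.36 ± 0.047, adjusted p = 1.41e-06). The classic targets Nqo1 and Hmox1 were not called.

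Among the largest rises at 5 CPM or more were genes of other kinds. Asprv1, an aspartic protease known from skin, had 52.6, 51.0 and 52.97 CPM in NSFr_Dgal, 30.7, 30.7 and 32.0 CPM in NSFr and 25.6, 23.6 and 26.6 CPM in control, in 3 separate ranges (1.04 ± 0.060, adjusted p = 1.40e-13). Adora1, the adenosine A1 receptor, had 34.4, 36.9 and 34.2 CPM in NSFr_Dgal, 36.1, 35.9 and 42.0 CPM in NSFr and 14.2, 18.5 and 22.2 CPM in control (0.96 ± 0.16, adjusted p = 3.46e-04), and did not differ detectably between NSFr_Dgal and NSFr (-0.11 ± 0.15, 95% interval -0.42 to 0.21). Fgfbp1, a carrier that frees fibroblast growth factors from the matrix, had 37.2, 35.6 and 33.2 CPM in NSFr_Dgal, 23.7, 22.3 and 22.4 CPM in NSFr and 21.4, 19.8 and 19.7 CPM in control (0.80 ± 0.068, adjusted p = 7.21e-10). Spaca6, a sperm protein, had 9.59, 9.38 and 11.8 CPM in NSFr_Dgal and 2.33, 5.49 and 5.45 CPM in control (1.24 ± 0.30, adjusted p = 0.00593). Also higher were Atg9b, a membrane protein of autophagy (1.01 ± 0.17), Enpp2, the enzyme autotaxin (0.82 ± 0.10), the chemokine receptor Cxcr6 (0.82 ± 0.098), the amine oxidase Aoc3 (0.75 ± 0.11) and the slow myosin Myh7b (0.81 ± 0.13).

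Among called genes at 5 CPM or more whose 2 groups did not overlap, the largest fall was that of Peg10, an imprinted gene derived from a retrotransposon. Larger falls were found at lower levels. Peg10 had 19.4, 20.0 and 21.04 CPM in NSFr_Dgal, 26.6, 26.0 and 25.1 CPM in NSFr and 35.6, 40.2 and 37.7 CPM in control. Its groups formed 3 separate ranges (-0.91 ± 0.069, adjusted p = 8.42e-11 against control, -0.36 ± 0.072, adjusted p = 7.09e-04 against NSFr, -0.54 ± 0.067, adjusted p = 7.29e-06 for NSFr against control). Scara5, a receptor for ferritin, had 6.46, 6.58 and 6.32 CPM in NSFr_Dgal, 10.3, 9.43 and 10.7 CPM in NSFr and 10.7, 12.7 and 10.9 CPM in control (-0.82 ± 0.088, adjusted p = 5.65e-08). Col23a1, a membrane collagen, had 19.8, 16.4 and 18.2 CPM in NSFr_Dgal and 28.6, 28.7 and 31.0 CPM in control (-0.70 ± 0.063, adjusted p = 1.83e-09). B3gnt2, a glycosyltransferase, was spread widely over the treated libraries, with 15.7, 21.7 and 29.9 CPM in NSFr_Dgal and 41.8, 45.8 and 37.1 CPM in control (-0.89 ± 0.22, adjusted p = 0.00759), and had adjusted p = 0.0801 when only these 2 groups were fitted.

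Other lists are given mainly as counts, to be read beside the 22.9% of all genes called. Of 37 extracellular matrix genes 3 were higher and 7 lower (27.03% called), and 5 were called without NSFr_Dgal replicate 2 and 4 without control replicate 2. Of 26 genes of the TGF-beta, myostatin and BMP axis 4 were higher and 5 lower (34.6%). Inhbb, a subunit of activin, had 143, 147 and 144 CPM in NSFr_Dgal and 112, 113 and 105.5 CPM in control (0.39 ± 0.043, adjusted p = 7.44e-08), while Acvr2a, an activin receptor, had 51.5, 53.7 and 53.1 CPM in NSFr_Dgal and 65.7, 70.1 and 66.1 CPM in control (-0.35 ± 0.043, adjusted p = 5.18e-07). Of 27 genes of autophagy and lysosome 1 was higher and 6 lower (25.9%), among them Atg5, part of the conjugation machinery (-0.29 ± 0.048), and the lysosomal protease Ctsl (-0.21 ± 0.049). Of 14 genes of the neuromuscular junction 3 were lower, the acetylcholine receptor subunits Chrng (-0.23 ± 0.033), Chrnd (-0.14 ± 0.031) and Chrna1 (-0.13 ± 0.031), and 5 were called without control replicate 1.

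Of 19 genes of excitation-contraction coupling, 3 were higher and 6 lower (47.4%, median -0.07), and 6 to 9 were called with 1 library left out. Trdn (triadin), which anchors the calcium store protein at the release channel, had 61.4, 69.4 and 65.6 CPM in NSFr_Dgal and 83.4, 76.2 and 74.8 CPM in control (-0.26 ± 0.056, adjusted p = 0.00117). Cacng1, a subunit of the muscle calcium channel, had 234, 223 and 214 CPM in NSFr_Dgal and 200.4, 199 and 179 CPM in control (0.21 ± 0.046, adjusted p = 0.00107). The groups overlapped for neither gene. Of 15 antioxidant enzymes 3 were higher and 3 lower (40.0%), among them the secreted superoxide dismutase Sod3 (0.30 ± 0.043). Trdn, Cacng1 and Sod3 were picked out after their values were seen. Of 10 genes of osmotic stress 1 was higher and 3 lower (40.0%), of 15 Wnt feedback genes 4 were higher and 2 lower (40.0%), and of the 5 bone and cartilage markers tested 3 were lower. Of 27 cytosolic ribosomal proteins 6 were lower (22.2%), and 2 were called without control replicate 1. Of 28 proteasome genes 5 were lower (17.9%), with 2 called without NSFr_Dgal replicate 2 and 0 without NSFr_Dgal replicate 3 or without control replicate 1.

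**Figure D3:**
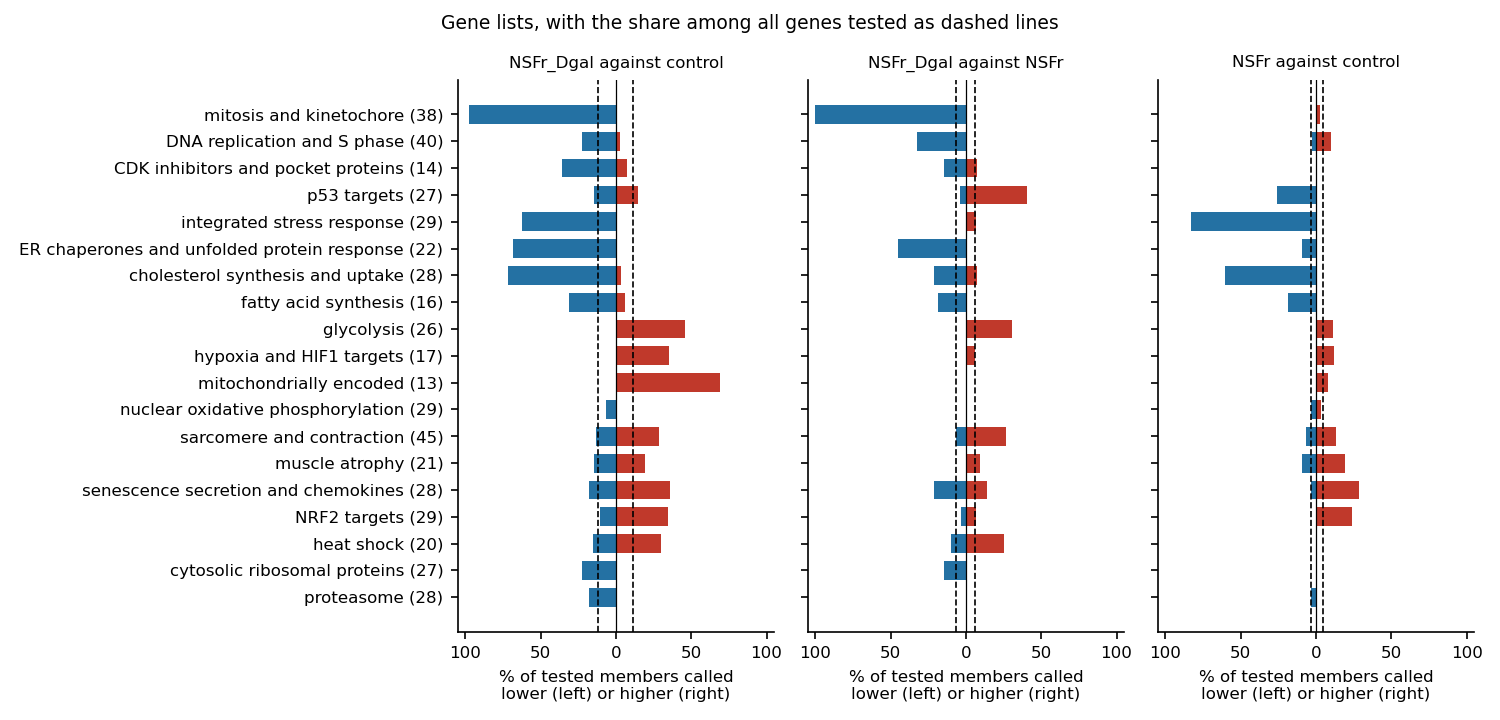
Percentage of tested members called higher (right) and lower (left) for 19 gene lists in NSFr_Dgal against control, NSFr_Dgal against NSFr and NSFr against control, with dashed lines at the share of all genes called. Mitosis genes stand far from the dashed lines in both comparisons of NSFr_Dgal, and integrated stress response genes in both comparisons with control.

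**Figure D4:**
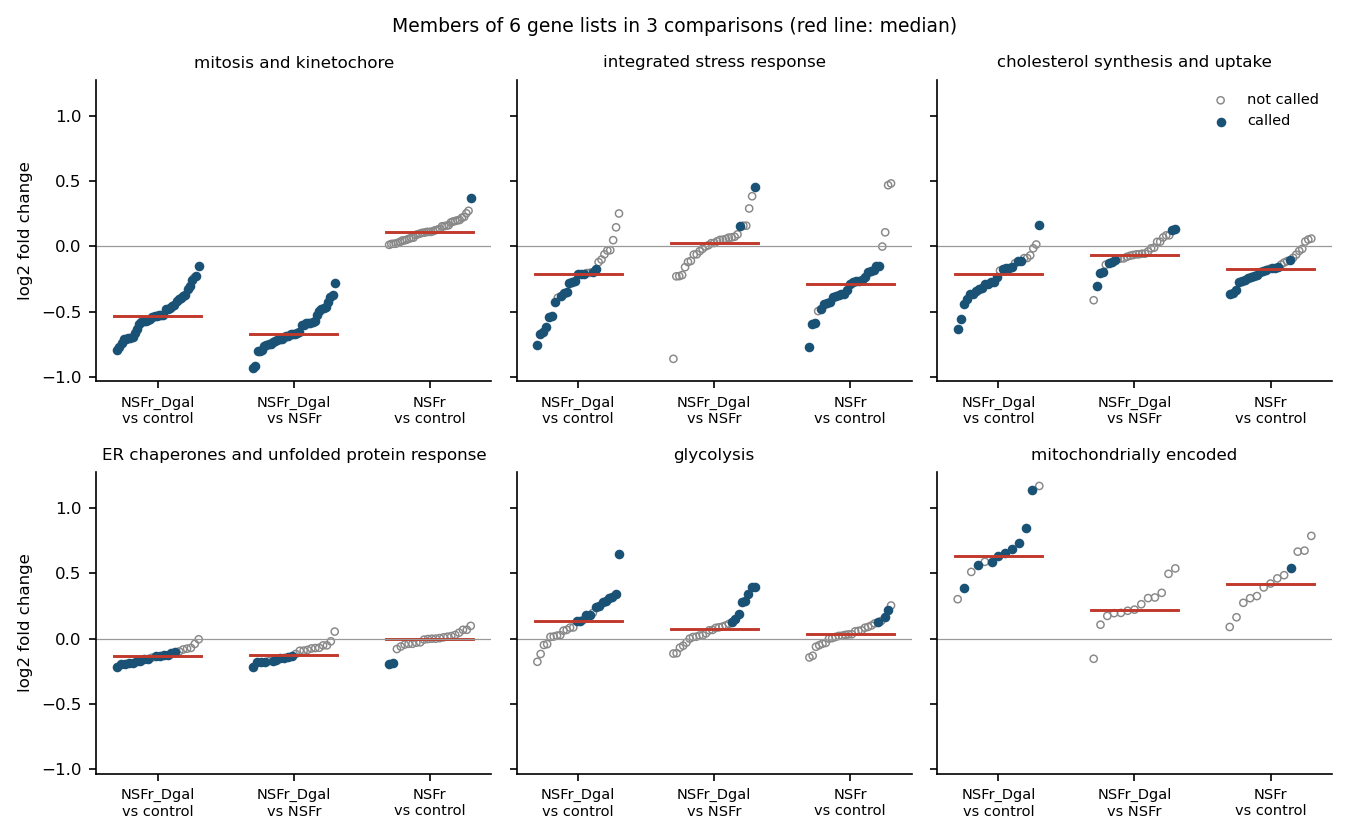
Log2 fold change of each tested member (points) and the list median (line) for 6 lists in NSFr_Dgal against control, NSFr_Dgal against NSFr and NSFr against control. The mitosis median is -0.53, -0.67 and 0.11 in this order, and that of the integrated stress response -0.22, 0.03 and -0.29.

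Set against the water extract before D-galactose, the non-saponin fraction differed in few genes, with mitosis genes among them. In all, 72 genes (0.592%) were called between NSFr_Dgal and RGW_Dgal, 48 (0.395%) higher and 24 (0.197%) lower in NSFr_Dgal. Of the 38 mitosis genes 17 were higher and 0 lower (median 0.41). Their summed level was 470.4, 414 and 449 CPM in NSFr_Dgal, 364, 345 and 335 CPM in RGW_Dgal and 625, 622 and 625 CPM in control, so that the RGW_Dgal mean was 55.7% of the control mean. The count of 17 was 6 with only these 2 groups fitted, and 3 without NSFr_Dgal replicate 1, 8 without NSFr_Dgal replicate 3, 5 without RGW_Dgal replicate 2 and 7 without RGW_Dgal replicate 3. Ccna2 had 18.2, 16.1 and 18.3 CPM in NSFr_Dgal and 10.4, 11.3 and 11.1 CPM in RGW_Dgal (0.68 ± 0.078, adjusted p = 1.12e-05). Hmmr, a spindle protein, had 10.1, 9.35 and 10.5 CPM in NSFr_Dgal and 6.99, 6.96 and 5.61 CPM in RGW_Dgal (0.61 ± 0.12, adjusted p = 0.0172). Ccnb2 (0.51 ± 0.099), Prr11 (0.52 ± 0.11) and Kif20a, a kinesin of cytokinesis (0.52 ± 0.075), were also higher. Falls were ranked among called genes at 5 CPM or more whose 2 groups did not overlap. The largest were those of Igfn1, a muscle protein of the Z-disc (-0.45 ± 0.10), Fzd8, a Wnt receptor (-0.42 ± 0.096), the transcription factor Foxq1 (-0.40 ± 0.085), the iodide carrier Slc5a5 (-0.38 ± 0.084) and the carbonic anhydrase Car3 (-0.38 ± 0.058). Ccna2, Kif20a and Car3 were called in each of the 12 other fits. The calls of the other 7 were lost without at least 1 library, with adjusted p = 0.0931 without RGW_Dgal replicate 3 for Hmmr, adjusted p = 0.140 without RGW_Dgal replicate 2 for Ccnb2, adjusted p = 0.124 without NSFr_Dgal replicate 1 for Prr11, adjusted p = 0.267 without RGW_Dgal replicate 2 for Igfn1, adjusted p = 0.215 without RGW_Dgal replicate 1 for Fzd8, adjusted p = 0.166 without NSFr_Dgal replicate 1 for Foxq1 and adjusted p = 0.169 without NSFr_Dgal replicate 3 for Slc5a5. Ccl2 had 2.93, 2.42 and 2.66 CPM in NSFr_Dgal and 1.37, 1.36 and 1.05 CPM in RGW_Dgal (1.07 ± 0.17, adjusted p = 0.00187).

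Against ginsenoside Rb2 before D-galactose, at another dose and in another unit, 1108 genes (9.11%) were called, 642 (5.28%) higher and 466 (3.83%) lower in NSFr_Dgal. The mitosis genes held 1 higher and 0 lower call (median 0.07), and summed to 453, 416 and 441 CPM in Rb2_Dgal. Padi3, an enzyme that converts arginine to citrulline, had 7.87, 7.91 and 8.75 CPM in NSFr_Dgal and 2.51, 3.01 and 3.30 CPM in Rb2_Dgal (1.46 ± 0.15, adjusted p = 3.64e-08). Gja5 (connexin 40) had 82.8, 87.9 and 87.5 CPM in NSFr_Dgal, 40.1, 36.4 and 42.6 CPM in Rb2_Dgal and 85.9, 85.6 and 85.2 CPM in control (1.12 ± 0.064, adjusted p = 1.27e-12 against Rb2_Dgal, 0.01 ± 0.060 against control with a 95% interval of -0.11 to 0.13). The fraction alone did differ from control in Gja5 (adjusted p = 5.57e-05), and NSFr_Dgal differed from NSFr (adjusted p = 1.42e-05). Trib3 had 17.4, 15.3 and 14.8 CPM in NSFr_Dgal and 25.5, 25.1 and 22.1 CPM in Rb2_Dgal (-0.61 ± 0.13, adjusted p = 0.00506), and Rgcc 6.85, 7.13 and 6.97 CPM in NSFr_Dgal and 11.5, 13.2 and 10.4 CPM in Rb2_Dgal (-0.74 ± 0.11, adjusted p = 4.06e-05). Asprv1 (1.10 ± 0.060), Enpp2 (1.01 ± 0.10) and the epidermal factor Grhl3 (0.91 ± 0.10) were also higher, and Cdhr1 (-0.76 ± 0.072), Pvalb, a calcium buffer of fast fibres (-0.65 ± 0.11), and Atp1b2, a subunit of the sodium pump (-0.60 ± 0.10), lower. These 10 genes were called in each of the 12 other fits. Counted against control in the same fit, 2838 genes (23.3%) were called in RGW_Dgal and 2215 (18.2%) in Rb2_Dgal, beside the 2780 (22.9%) in NSFr_Dgal. These counts share the control libraries, and their difference was not tested.

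**Figure D5:**
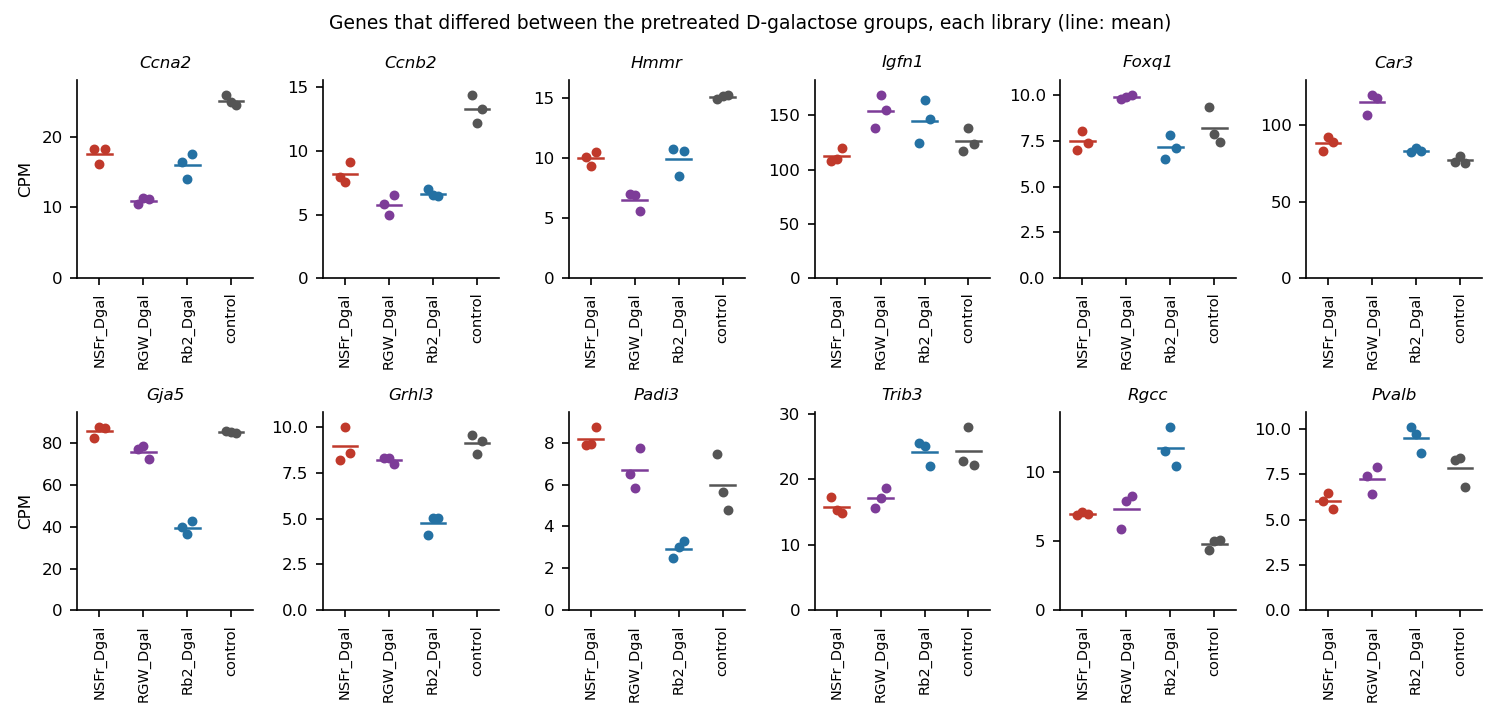
CPM of 12 genes in each library (points) with the group mean (line) for NSFr_Dgal, RGW_Dgal, Rb2_Dgal and control, 3 libraries each. The cell cycle genes Ccna2, Ccnb2 and Hmmr lie between RGW_Dgal and control in NSFr_Dgal, and Gja5 is at its control level in NSFr_Dgal and lower in Rb2_Dgal.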

How the data were processed

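Poly(A) RNA of C2C12 myotubes was sequenced as paired-end directional libraries, per the labels. The deposited table holds the authors' RSEM expected counts per gene. The submitters' processing notes name FastQC 0.11.9, Trim Galore 0.6.10, STAR 2.7.9a, RSEM 1.3.3 and the builds GRCm38 and mm10. Neither the annotation release nor the strand setting was given in the sources used here. Of the values, 19.4% were not whole, and all were rounded. Genes were kept by edgeR's expression filter (12166 of 16025). Library sizes were scaled by TMM, which also sets the CPM. The 27 libraries of the 9 groups other than D-galactose alone were fitted with edgeR 4.0.16 (quasi-likelihood, R 4.3.3), with 1 mean per group and 3 libraries in each, called biological replicates in the series' design text. Calls are at a Benjamini-Hochberg adjusted p of 0.05 over all genes tested. The biological coefficient of variation was 4.29%. On simulated counts for 12090 genes, the test recovered 50% of 1.2-fold, 70% of 1.3-fold, 94% of 1.5-fold and 94% of 2-fold changes (50 genes each) with 7 false calls. Far fewer genes were changed there than were called in the data, which makes the adjusted p stricter. These shares therefore do not carry over to the data.

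The members and lists were chosen with earlier results of these data known. Named were the 15 largest rises and falls at a mean of 5 CPM or more, the up to 4 members of each list with the smallest p, a fixed set, and the 5 largest rises and falls against RGW_Dgal and Rb2_Dgal. Other genes are said to have been picked out after their values were seen. Some genes that fall under this rule are not reported here. Alternatives were RLE scaling, no filter, DESeq2 1.42.0, a replicate block, only the groups compared, all 30 libraries, and each library left out. Within groups, pairs of libraries differed by more than sampling noise (chi-square per degree of freedom of 3.10 to 5.49 in NSFr_Dgal and 6.54 to 11.2 in control). Same-numbered libraries of NSFr_Dgal and control deviated together only weakly (r = 0.088, 0.024 and 0.083). Libraries with different numbers gave lower values, from -0.087 to 0.0058. The numbers were not taken as pairs. Promoters (RefSeq, GRCm38.p6, 250 bases before to 50 after the start) were searched for each word on both strands. A gene with several promoters counted if any held the word. Binomial and other counting limits cover counting error only, and genes listed without a row were not analysed here.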

Additional observations from a re-analysis of the deposited data

Results flagged for a closer look

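The expression of these genes under D-galactose differed between pretreatments, by edgeR's quasi-likelihood test of the difference itself (adjusted p under 0.05 over 12166 genes, 3 libraries per group). They are the 5 largest rises and falls in each comparison among called genes at 5 CPM or more whose 2 groups did not overlap. Predicted genes and clone names were left out. In NSFr_Dgal against RGW_Dgal, log2 differences were 0.68 for Ccna2, 0.61 for Hmmr, 0.52 for Prr11, 0.52 for Kif20a and 0.51 for Ccnb2. On the lower side they were -0.45 for Igfn1, -0.42 for Fzd8, -0.40 for Foxq1, -0.38 for Slc5a5 and -0.38 for Car3. In NSFr_Dgal against Rb2_Dgal, they were 1.46 for Padi3, 1.12 for Gja5, 1.10 for Asprv1, 1.01 for Enpp2 and 0.91 for Grhl3. On the lower side they were -0.76 for Cdhr1, -0.74 for Rgcc, -0.65 for Pvalb, -0.61 for Trib3 and -0.60 for Atp1b2. The doses of the pretreatments are in different units for Rb2 and the fraction, so these are differences between the cultures as treated.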

How the results depend on the processing

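The 2780 genes called in NSFr_Dgal against control were 2803 with RLE scaling, 2563 with no filter and 2566 with DESeq2. They were 2726 with a replicate block (the numbers were not taken as pairs in the main fit) and 2408 with only these 2 groups. With all 30 libraries they were 2876, and 2038 to 2469 with 1 library left out. Fitting only the 2 groups compared gave 508 genes for NSFr against control, 29 for NSFr_Dgal against RGW_Dgal, 1947 for NSFr_Dgal against Rb2_Dgal and 1805 for RGW_Dgal against control. Leaving out 1 library gave 590 to 881 for NSFr against control, with 590 without control replicate 2 and 640, 616 and 652 without NSFr replicates 1, 2 and 3. It gave 12 to 46 for NSFr_Dgal against RGW_Dgal, with 12, 46 and 34 without NSFr_Dgal replicates 1, 2 and 3 and 44, 19 and 24 without RGW_Dgal replicates 1, 2 and 3. It gave 649 to 773 for NSFr_Dgal against Rb2_Dgal. The cause of these moves was not tested, beyond the smaller number of libraries. Changes of sign were looked for only among 127 genes chosen for naming. The uncalled log2 fold changes against control that changed sign there when 1 library was left out were those of Gja5 (-0.0053 to 0.038), Grhl3 (-0.11 to 0.034) and Atf3 (-0.063 to 0.018). With 3 libraries per group small changes can be missed, although the median called change against control was 1.16-fold.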
